A study of Mus musculus with 10 samples.

Results

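Periportal hepatocytes outside the portal rim are the liver cells that lie toward the portal vein but are not its immediate neighbours. They were taken here as a band of cells, 3828 of 18378 single hepatocytes (20.8%), by their order along a score of position. In each of 10 libraries every gene's ln(1 + UMIs per 10000) was turned into a z-score, a UMI being a distinct tagged RNA molecule. The score was the mean z of 8 periportal genes (Ass1, Asl, Cyp2f2, Ctsc, Ftcd, Hal, Hsd17b13 and Pigr), from which the mean z of 8 pericentral genes was subtracted (Aldh1a1, Cyp1a2, Cyp2e1, Gulo, Lect2, Mgst1, Oat and Rgn). The cells were thus chosen by measured values: those ranked above 2/3 and up to 7/8 of their own library on this score of 16 genes formed the band. The 2302 cells above it are called the portal rim, the 6127 cells of the middle of the order are called midlobular, and all 14550 cells outside the band serve as a last reference.

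The study measured RNA in single hepatocytes of mouse liver at 4 times of day. Zeitgeber time (ZT) counts hours from lights on. There were 3 libraries at ZT0 (A, B and C), 2 at ZT6 (A and B), 3 at ZT12 (A, B and C) and 2 at ZT18 (A and B). All came from C57BL/6 males at an age of 3 months, on regular chow with free access to food, under ketamine and xylazine. Hepatocytes were freed with collagenase, purified over Percoll and put through the 10x 3' chemistry, version 2. No genotype or treatment is named that separates the groups, which are labelled by time. The number of mice behind a library is not given in the sources used here, and p-values therefore measure the spread between libraries, which may be technical.

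Blood enters the liver lobule at the portal vein, rich in oxygen and in nutrients from the gut, and leaves at the central vein. Hepatocytes along that path divide their work: urea synthesis, amino acid breakdown, gluconeogenesis and secretion of plasma proteins weigh toward the portal side, and glutamine synthesis, bile acid synthesis and much of drug metabolism weigh toward the central side. The central programme is known to depend on Wnt signals from the central vein. The hepatocyte clock, a loop of activators such as Arntl and repressors of the Per, Cry and Nr1d families, runs on top of this division and sets the hours of many metabolic genes.

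The band held 148 cells in ZT12A, the smallest library, and 596 in ZT0B, the largest. Summed over cells, a library's band held 325321 (ZT12A) to 1592529 (ZT12B) UMIs, so that 1 UMI was worth 2.95 and 0.653 CPM in those libraries. CPM here are UMIs scaled to one common total for every library, with TMM factors. The median cell of the band held 1564 to 2743 UMIs, with a mitochondrial share of 13.1% to 25.5%, against 11.7% to 24.8% in midlobular and 13.5% to 26.5% in rim cells. ZT0C and ZT12C stood apart from the other libraries. The nuclear RNA Malat1 measured 7392 and 7032 CPM in their bands, against 926 to 2208 CPM elsewhere, and their highest band scores were 1.69 and 1.52, against 1.02 to 1.34. Sample index numbers, whose meaning is not given in the sources used here, were uneven over time. ZT6A, ZT6B, ZT0B and ZT12B carry number 7, ZT18A and ZT18B number 4, ZT0A and ZT12A number 3, and ZT0C and ZT12C number 5, so between ZT6 and ZT18 time and index cannot be told apart. The deposited columns number the cells without barcodes, so barcodes shared between libraries could not be counted. Of the marker genes of other cell types in the files, UMIs were found in the band for 2 of 4 of cholangiocytes (Krt19 and Krt7 at 0), 4 of 5 of endothelium (Clec4g at 0), 2 of 5 of macrophages (Clec4f, Adgre1 and C1qa at 0), 1 of 4 of lymphocytes (Cd3e, Cd79a and Nkg7 at 0), 1 of 2 of neutrophils (S100a9 at 0) and 4 of 5 of stellate cells (Col1a1 at 0). Whole lists summed to at most 20.2 CPM for endothelium, 23.3 for stellate cells, 6.88 for macrophages, 2.95 for lymphocytes, 2.19 for neutrophils and 1.60 for cholangiocytes. Erythroid genes, all 5 with UMIs, summed to 53.2 to 119 CPM. Of these, the globin genes Hba-a1, Hba-a2 and Hbb-bt averaged under 3 CPM in the band. Without thinning, Hba-a1 had UMIs in 0.13% of band cells and Hbb-bs in 0.63%. The remaining gene of the list is Alas2.

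By its rule the band is a stretch of an order of cells and is not defined as a separate class. Cuts at fixed ranks leave cells of nearly equal score on both sides, so the bounds do not test for a class. Its lower bound lay at a score of 0.561 in ZT6B, where the last cell outside had 0.560, and at 0.847 in ZT12C for the first cell inside as for the last one outside. Its upper bound ranged from 1.02 in ZT18A, where the next cell outside had 1.03, to 1.69 in ZT0C on both sides. Of the 3828 cells, 1387 (36.2%) lay within 0.1 of a bound. Membership of a single cell was loose: a score from the odd-numbered landmarks alone kept 54.2% of the cells in the band, the even-numbered ones kept 56.9%, and a score from cells thinned to 1000 UMIs kept 55.5%. Levels and tests below therefore use sums over the band of each library. Shares of cells with a UMI describe the band's cells as a group and carry no test.

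The landmark genes describe the choice and carry no test between bands. Cyp2f2, a cytochrome P450 of the portal side, measured 750 to 1634 CPM in the band (lowest and highest of 10 libraries, median 1210), 237 to 1336 (median 733) in midlobular cells and 955 to 2039 (median 1415) in the rim. Ass1, the urea cycle enzyme that joins citrulline and aspartate, had medians of 780, 872 and 1011 CPM in midlobular, band and rim cells. Cyp2e1, the ethanol-oxidising P450 of the central side, had medians of 838, 111 and 53.0 CPM in the same order. After each cell was thinned to 1000 UMIs, 71.1% of band cells held a Cyp2f2 UMI, against 3.84% of the most central cells. Cyp2f2 is part of the score that ranked both groups. The low central share is therefore partly set by the choice and is no measure of free RNA. The unthinned share in the band was 89.9%, at a median of 1408 to 2931 UMIs in the most central cells and 1564 to 2743 in the band.

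**Figure D1:**
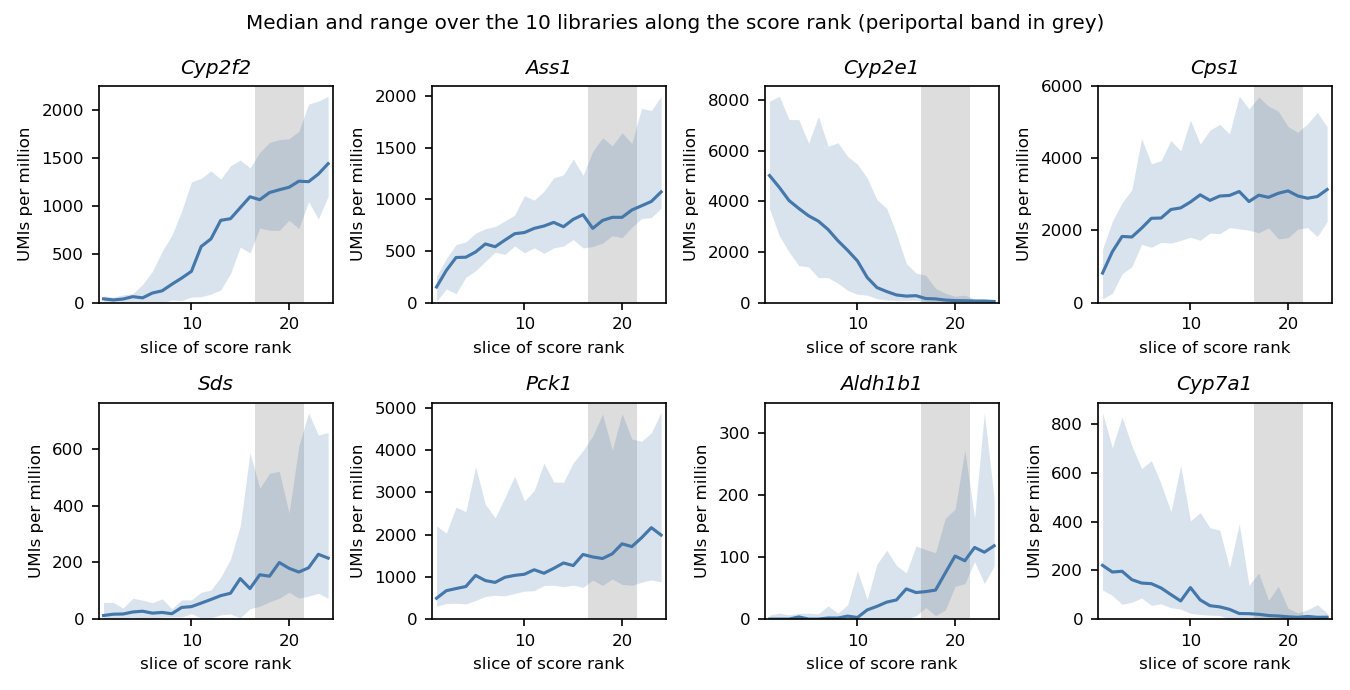
CPM (UMIs scaled to one common total, without TMM factors) of 8 genes over 24 equal slices of each library's score order, from the central end (left) to the portal end (right); the line is the median and the shading the range of 10 libraries, and the grey stretch marks slices 17 to 21, the band. Median Cyp2f2 went from 38.5 in slice 1 to 1442 in slice 24, while median Cps1 differed little between the first and last slice of the band (2978 and 2957).

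Sds and Pck1 were not used in the score, and their levels fit the name of the band. Sds, serine dehydratase, which turns serine into pyruvate, measured 85.1 to 446 CPM in the band (median 191), 13.2 to 143 (median 79.2) in midlobular cells and 101 to 651 (median 219) in the rim. It was higher in the band than in midlobular cells in 10 of 10 libraries, by 1.18 log2 (SE 0.09). Pck1, the enzyme that commits carbon to gluconeogenesis, measured 924 to 4266 CPM in the band (median 1634), with medians of 1261 in midlobular and 2047 in rim cells. It too was higher than in midlobular cells in 10 of 10 libraries, but by only 0.37 log2 (SE 0.04). The ranges over libraries overlapped for both genes, but the band exceeded midlobular cells within each library. Levels of both differed between times and between libraries of the same time, and the part of either in the overlap was not tested. At 1000 UMIs per cell, Sds was seen in 2.62% of the most central, 7.79% of midlobular, 15.7% of band and 17.9% of rim cells. Pck1 was seen in 50.8%, 67.9%, 74.6% and 77.2% of the same cells. Sds was therefore seen in a minority of band cells at this depth. Pck1 was seen in 57.5% to 94.8% of band cells over the 10 libraries.

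Against midlobular cells, the band had more RNA of most listed plasma proteins and of some genes of amino acid breakdown and gluconeogenesis. It had less of most tested pericentral genes and of some genes of bile acid synthesis and fatty acid oxidation, with the counts given below for each list. Of 8870 genes tested over library sums with the library as a block, 493 (5.56%) had an adjusted p under 0.05, 226 higher in the band (2.55%) and 267 lower (3.01%). Since the score that chose the cells was built from the same RNA, these counts describe the contrast and support nothing. Of the 493, 231 had the same sign in all 10 libraries and 65 differed by 1 log2 or more. The median over all genes was 0.00 log2. With library size in place of TMM, 33.8% of 547 such genes were higher, against 45.8% of the 493, so the split between directions depended on the scaling.

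Of the genes named by the rule as higher in the band, Aldh1b1 differed most. Aldh1b1, a mitochondrial aldehyde dehydrogenase, measured 39.4 to 118 CPM in the band (median 90.3) and 3.55 to 69.8 (median 24.7) in midlobular cells. The difference was 1.66 log2 (SE 0.13), in 10 of 10 libraries. Cdh1, the epithelial adhesion molecule E-cadherin, measured 57.5 to 167 CPM in the band and 5.08 to 126 in midlobular cells, a difference of 1.15 log2 (SE 0.15) in 10 of 10 libraries. Spp1, the secreted protein osteopontin, had a median of 31.1 CPM in the band and 7.23 in midlobular cells, but ranged in the band from 0 UMIs to 213 CPM in ZT0A, and it was higher in 8 of 10. Ctnnbip1, an inhibitor of the contact between beta-catenin and its DNA-binding partners, was higher by 1.36 log2 (SE 0.14), at medians of 47.1 and 20.02 CPM. Cib3, a calcium-binding protein, was higher by 1.37 log2 (SE 0.14) and Cryl1, lambda-crystallin, by 1.31 (SE 0.19). Hsd17b6, a hydroxysteroid dehydrogenase, differed by 1.01 log2 (SE 0.09) and Mup20, a major urinary protein, by 0.86 (SE 0.06). Of 12 listed genes of the portal rim and of biliary-like hepatocytes, only 5 passed the filter of a mean of 3 CPM. Aldh1b1, Cdh1 and Spp1 were called higher and none lower; the median of the 5 was 1.15 log2. Summed over 10 genes of that list and without thinning, 37.0% of band cells held at least 1 UMI, between 19.2% of midlobular and 45.4% of rim cells.

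Genes of nitrogen handling divided unevenly. Of 29 listed genes of amino acid breakdown, 9 were called higher (Sds, Uroc1, Amdhd1, Got1, Tat, Tdo2, Gldc, Cbs and Hnmt) and 1 lower (Hpd), and the list's median was 0.10 log2. Of these 10 calls 8 held under every alternative, all but Amdhd1 and Hnmt. Gldc, which cleaves glycine in mitochondria, had medians of 152 CPM in the band and 103 in midlobular cells and was higher in 10 of 10 libraries by 0.53 log2 (SE 0.08). Got1, the cytosolic aspartate aminotransferase, was higher by 0.35 log2 (SE 0.06) in 9 of 10. Tat and Tdo2, which start the breakdown of tyrosine and tryptophan, were each higher by 0.18 log2 (SE 0.04). Hpd, the next enzyme of tyrosine breakdown, was lower in 10 of 10 libraries (-0.20 log2, SE 0.04).

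The urea cycle enzymes outside the score were nearly level between band and midlobular cells. Ass1 and Asl, also of the cycle, are landmarks and were left out of the calls. The median of Ass1, given above, was higher in the band than in midlobular cells. Cps1, which makes carbamoyl phosphate from ammonia, measured 1998 to 4639 CPM in the band (median 3208) and 1978 to 4362 (median 3003) in midlobular cells, a difference of 0.08 log2 (SE 0.04). Otc, the next enzyme, differed by 0.10 log2 (SE 0.05) and Arg1, which releases urea, by 0.08 (SE 0.04). None of these 3 was called. Gls2, the liver glutaminase that supplies ammonia, was the single called gene of the 9 tested in the list. It measured 212 to 637 CPM in the band and 134 to 395 in midlobular cells, higher by 0.60 log2 (SE 0.08) in 9 of 10 libraries.

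Of 9 genes of gluconeogenesis, 3 were called higher (Pck1, Fbp1 and Ppargc1a), with a list median of 0.12 log2. Fbp1, fructose bisphosphatase, had medians of 811 CPM in the band and 665 in midlobular cells and was higher in 10 of 10 libraries by 0.34 log2 (SE 0.05). Plasma proteins formed the broadest group: 16 of 22 were called higher and 1 lower, with a median of 0.18 log2. Of these 17 calls 7 held under every alternative (Alb, Apoa4, C3, C8a, Hpx, Trf and Vtn), and of the 3 for gluconeogenesis 2 did (Pck1 and Fbp1). Alb, serum albumin, had medians of 40860 and 31580 CPM and was higher by 0.35 log2 (SE 0.04). Apoa4, an apolipoprotein of lipid transport, had medians of 153 and 92.4 CPM and was higher by 0.64 log2 (SE 0.09). No gene of the 13 for folding in the endoplasmic reticulum and none of the 16 clock genes tested was called in this contrast.

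**Figure D2:**
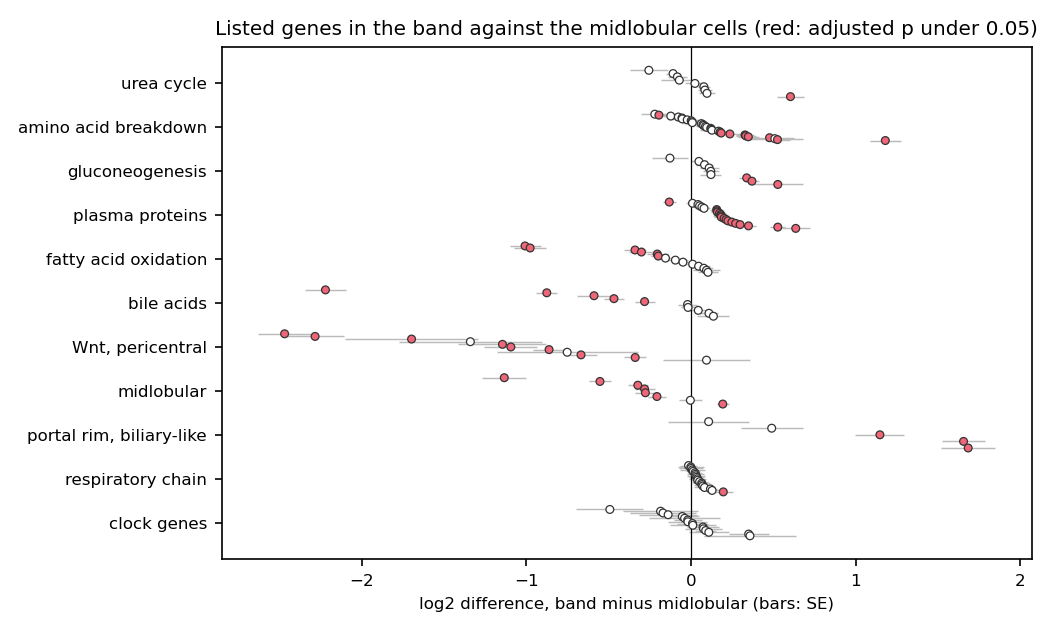
Difference between the band and midlobular cells (log2, band minus midlobular, with SE) for each tested gene of 11 gene lists; red points had an adjusted p under 0.05 and white points did not. Plasma proteins lie mostly right of 0, pericentral and bile acid genes mostly left, and urea cycle genes close to 0 except Gls2 at 0.60. Landmarks such as Ass1 are not shown.

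On the other side, the 8 genes named by the rule as lower in the band were 5 cytochromes P450 of the Cyp2 families, Cyp7a1, Csad and Aldh3a2. Cyp2c29, a P450 of drug and fatty acid epoxidation, measured 29.4 to 304 CPM in the band (median 84.4), 125 to 2444 (median 483) in midlobular cells and 17.2 to 126 (median 45.7) in the rim. It was lower than in midlobular cells in each library (-2.45 log2, SE 0.12). Cyp2c50 had medians of 110 and 452 CPM (-1.91, SE 0.08) and Cyp2c37 medians of 8.89 and 43.4 CPM (-2.47, SE 0.16). Cyp7a1, the rate-limiting enzyme of bile acid synthesis, measured 0.80 to 79.7 CPM in the band (median 13.8) and 19.9 to 352 (median 69.0) in midlobular cells, lower in 10 of 10 libraries (-2.22 log2, SE 0.13). Csad, which makes the taurine used for bile acid conjugation, had medians of 124 and 364 CPM (-1.51 log2, SE 0.08). Aldh3a2, a fatty aldehyde dehydrogenase (-2.38 log2, SE 0.14), Cyp2a5, a P450 of coumarin oxidation (-2.28, SE 0.17), and Cyp2c54 (-1.63, SE 0.11) made up the rest of the 8. Globin genes had larger fitted differences but not the same sign in all libraries: Hba-a1, Hba-a2, Hbb-bs and Hbb-bt were called lower, and their level rested on midlobular cells of ZT18B, where Hbb-bs measured 409 CPM against at most 3.99 in midlobular cells of the other libraries. Hbb-bs was higher in the band in 5 of 10 libraries. The Cyp2c genes are near copies of each other, and how reads were divided among them is not given in the sources used here.

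As lists, 8 of the 11 tested Wnt-linked and pericentral genes were called lower and none higher (median -1.09 log2), 5 of 10 bile acid genes lower and none higher (-0.15), and 6 of 14 fatty acid oxidation genes lower and none higher (-0.13). Under every alternative 6, 4 and 4 of these calls held, in that order. Glul, glutamine synthetase, whose RNA fills the cells next to the central vein, was already low in midlobular cells (median 68.8 CPM) and lower still in the band (44.5 CPM, -0.67 log2, SE 0.10). In thinned cells Glul was seen in 4.15% of the band against 36.3% of the most central cells. Cyp4a10 and Cyp4a14, targets of PPARalpha that hydroxylate fatty acids, differed by -0.98 (SE 0.10) and -1.01 (SE 0.09) log2. Hamp2, a hepcidin, had medians of 81.6 CPM in the band and 165 in midlobular cells (-0.55 log2). Of 8 genes of the midlobular list, 6 were lower and 1 higher. Of these 7 calls 2 held under every alternative, Hamp2 and Ccnd1.

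Toward the portal vein the differences were few. Of 8851 genes tested between band and rim, 38 (0.429%) were called, 25 higher in the band and 13 lower, with a median of 0.01 log2 over all genes. The same caution holds, since the score separates these cells too. Cyp2c50 was still higher in the band than in the rim in 10 of 10 libraries, at medians of 110 and 45.8 CPM (1.15 log2, SE 0.10), as was Cyp2c29 (1.15 log2, SE 0.10). Csad was higher by 0.75 log2 (SE 0.08) in 10 of 10, and Ang, an RNase of the angiogenin family, by 0.51 (SE 0.11; 0.35 without ZT0C). Aldh1b1 was lower in the band in 10 of 10 libraries, at 90.3 against 114 CPM (-0.56 log2, SE 0.08), and Sds in 10 of 10 (-0.31, SE 0.06). Hsd17b6 (-0.35, SE 0.06), Apoa4 (-0.42, SE 0.07) and Nnmt, which methylates nicotinamide (-0.29, SE 0.07), were lower as well. The Sds call was lost with the odd landmarks, with thinned cells and with a split into 5 bands.

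Most of the groups that set the band apart from midlobular cells had few calls against the rim. No listed gene of the urea cycle, gluconeogenesis or fatty acid oxidation was called between band and rim. For plasma proteins 5 of 22 were lower in the band (Apoa4, C3, Hpx, Serpinc1 and Vtn), and for the rim list 1 of 5 (Aldh1b1). None of these calls held under every alternative. Pck1 was higher in the band than in the rim in 2 of 10 libraries and lower in the other 8 (-0.12 log2, SE 0.04), and it was not called. Cdh1 differed by -0.25 log2, not called, at medians of 126 CPM in the band and 114 in the rim. A missing call does not show that these levels were equal.

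**Figure D3:**
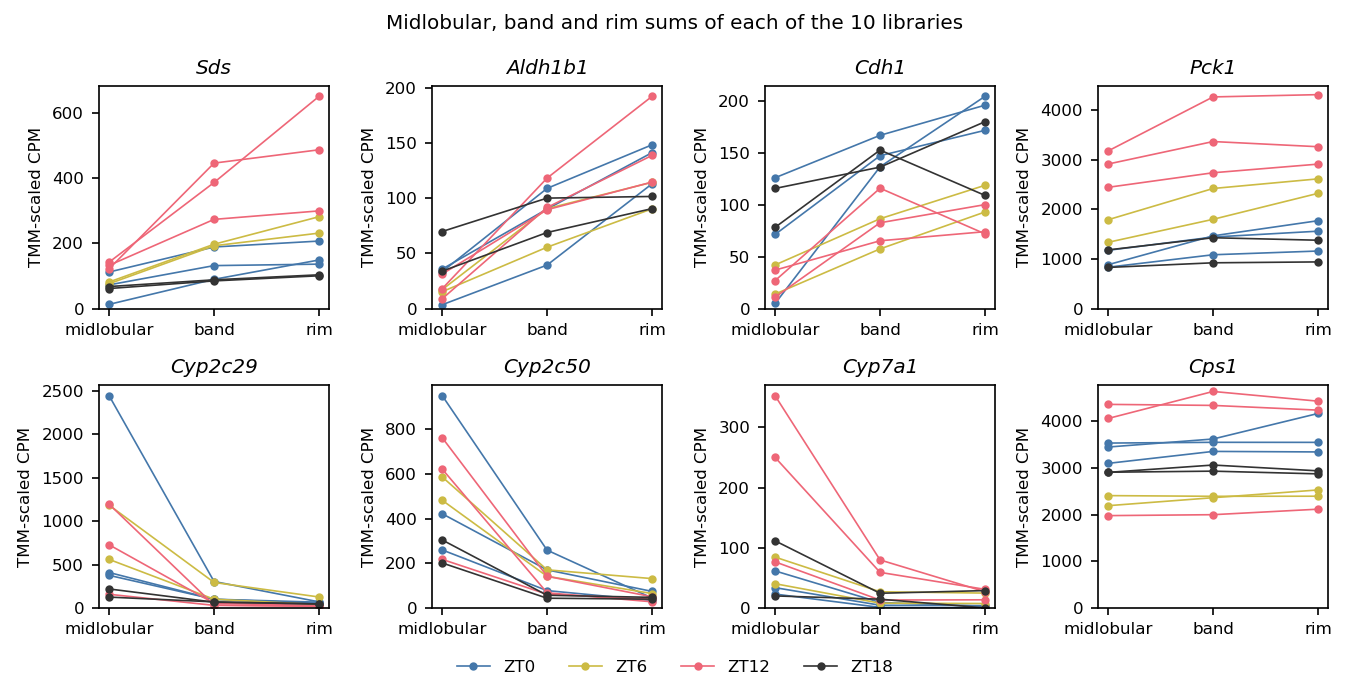
CPM in midlobular, band and rim cells of 8 genes, with 1 line per library and colour by time. Sds, Aldh1b1 and Pck1 climb from midlobular cells to the band in each of 10 lines, Cyp2c29, Cyp2c50 and Cyp7a1 are lower in the band than in midlobular cells, and Cps1 runs nearly level, with medians of 3003, 3208 and 3141 CPM.

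The band was also set against the mean of both neighbours. Of 8881 genes, 16 (0.18%) were called, 8 on each side. Scaled by library size, 38.9% of 18 calls lay on the higher side, against 50% of the 16. Above the mean of the neighbours lay Spp1 (0.78 log2), Ctnnbip1 (0.61), Aldh1b1 (0.54), Cib3 (0.51), Sds (0.42) and Mup20 (0.30), together with the nuclear RNAs Malat1 (0.25) and Neat1 (0.22). Below it lay Cyp7a1 (-0.82), Cyp2c29 (-0.66), Cyp4a10 (-0.44), Csad (-0.39), Por, the electron donor of the P450s (-0.34), Slco1b2, a bile acid and drug uptake transporter (-0.33), Cyp3a11 (-0.30) and Acaa1b, a peroxisomal thiolase (-0.24). The middle of the midlobular stretch lies farther from the band than the middle of the rim, so an even gradient along the axis also puts portal genes above this mean and central genes below it. These values therefore show neither a peak nor a bend in the band. Omitting a single library left 8 to 25 calls, with DESeq2 1 gene was called, and for Spp1 the sign turned to -0.02 when cells were thinned before scoring.

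Against all other cells together 1052 of 8882 genes (11.8%) were called, 493 higher (5.55%) and 559 lower (6.29%). With library size alone 29.96% of 1235 such calls were higher, against 46.9% of the 1052. The reference holds the central end of the lobule, so its own genes lead. Slc1a2, a glutamate transporter of the cells at the central vein, was the lowest in the band of those named by the rule (-4.97 log2, SE 0.19), with Cyp2c37 at -4.15, Lpl, lipoprotein lipase, at -3.48 and Glul at -3.01. The genes highest in the band were Ctnnbip1 (1.43, SE 0.11), Cryl1 (1.39), Aldh1b1 (1.35), Cdh1 (1.32), Cib3 (1.30), Plxna2, a semaphorin receptor (1.17), Sds (1.17, SE 0.07) and Etnppl, which breaks down phosphoethanolamine (1.12). Gls2 was higher by 0.99, Pck1 by 0.49 and Cps1 by 0.29 log2.

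Time of day was not part of the choice of cells, which were ranked within each library, so changes over time within the band were tested. A 24-h wave was fitted per gene to the 10 band sums, and its amplitude is the log2 distance from mean to peak. Of 8846 genes, 313 (3.54%) had an adjusted p under 0.05 by edgeR's quasi-likelihood test, with a median amplitude of 1.06 log2 against 0.32 over all genes. The fitted peaks lay within 3 h of ZT0 for 78 genes, of ZT6 for 51, of ZT12 for 72 and of ZT18 for 112. Of the last group 36 were pseudogenes or major urinary protein genes. Between opposite times, 201 genes (2.27%) differed between ZT12 and ZT0, 95 higher and 106 lower at ZT12, and 151 (1.71%) between ZT18 and ZT6, 99 higher and 52 lower at ZT18. Scaled by library size, 65.0% of 197 calls lay in the direction of ZT12, against 47.3% of the 201, and the median over all genes moved from -0.04 to 0.13 log2. In bulk sums of this kind, fewer cells with a transcript and less RNA per cell cannot be told apart.

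Without ZT0C and ZT12C, 207 genes had a rhythm and 107 differed between ZT12 and ZT0. Without ZT18A and ZT18B 153 had a rhythm, and without the shallow ZT12A and ZT12C 94 differed between ZT12 and ZT0. These settings were added after the data had been seen. Omitting a single library left 175 to 339 rhythmic genes, 117 to 226 for ZT12 against ZT0 and 22 to 224 for ZT18 against ZT6. The last comparison, with 2 libraries a side, was thus the least stable. Sampling every 6 h cannot tell a smooth wave from a short pulse.

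Of 17 tested clock genes 13 were called rhythmic, at a median amplitude of 1.495 log2 (0.32 over all genes). Dbp, a clock-driven activator of daytime genes, measured 3.57, 1.60 and 6.07 CPM at ZT0, 133 and 157 at ZT6, 70.9, 144 and 112 at ZT12, and 8.70 and 9.46 at ZT18. All ZT6 and ZT12 libraries lay above all ZT0 and ZT18 libraries. The fitted amplitude was 3.19 log2 with a peak at ZT8.97 (edgeR adjusted p = 5.36e-07), and ZT12 exceeded ZT0 by 4.91 log2 (SE 0.38, edgeR adjusted p = 5.97e-08). Tef, a relative of Dbp, measured 12.5, 15.2 and 13.1 CPM at ZT0, 59.0 and 70.9 at ZT6, 133, 125 and 87.5 at ZT12, and 37.7 and 44.6 at ZT18. The 4 times did not overlap for Tef, whose peak was fitted at ZT11.15 (amplitude 1.53 log2, edgeR adjusted p = 1.16e-05).

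The repressors of the loop were highest at ZT6 or ZT12. Nr1d1 (Rev-erb alpha), the repressor of Arntl, measured 0.89, 1.60 and 2.02 CPM at ZT0, 35.4 and 19.2 at ZT6 and 2.95, 5.88 and 6.56 at ZT12. At ZT18 both libraries had 0 UMIs of Nr1d1 in the band, so no fold is given against that time (edgeR adjusted p = 2.16e-05 for the rhythm). Its relative Nr1d2 stood at 3.57, 9.60 and 5.06 CPM at ZT0, 46.2 and 63.3 at ZT6, 76.8, 69.9 and 74.4 at ZT12, and 20.3 and 18.9 at ZT18 (peak ZT10.26, edgeR adjusted p = 2.16e-05). Per3 measured 0 to 5.06 CPM at ZT0 and 19.7 to 26.1 at ZT12, with a peak at ZT10.93 (edgeR adjusted p = 0.00500). Nr1d1 thus fell back by ZT12, while Nr1d2 and Per3 were then at their highest. Per1 was called (edgeR adjusted p = 0.0202) but lost its call without ZT0B (0.0582), without ZT12C (0.0560) and without both ZT0C and ZT12C (0.145), among others. Per2 was not called (0.333).

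Genes on the other arm of the loop were high around lights on. Arntl, the activator partner of Clock, measured 20.5, 8.001 and 15.2 CPM at ZT0, 2.95 and 0 at ZT6, 5.91, 0.65 and 2.19 at ZT12, and 18.8 and 10.8 at ZT18. The ZT0 and ZT18 libraries lay above all ZT6 and ZT12 libraries, and the fitted peak was at ZT20.97 (amplitude 2.05 log2, edgeR adjusted p = 0.00812). Its call was lost without ZT12B, the deepest library (edgeR adjusted p = 0.0572). Nfil3, a repressor of Dbp targets, stood at 39.2, 51.2 and 38.4 CPM at ZT0, 15.7 and 21.1 at ZT6, 11.8, 19.6 and 8.75 at ZT12, and 34.8 and 55.4 at ZT18 (edgeR adjusted p = 0.00590). Of the 13 clock genes called, 7 were called under every alternative: Dbp, Nr1d1, Nr1d2, Per3, Tef, Nfil3 and Ciart.

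**Figure D4:**
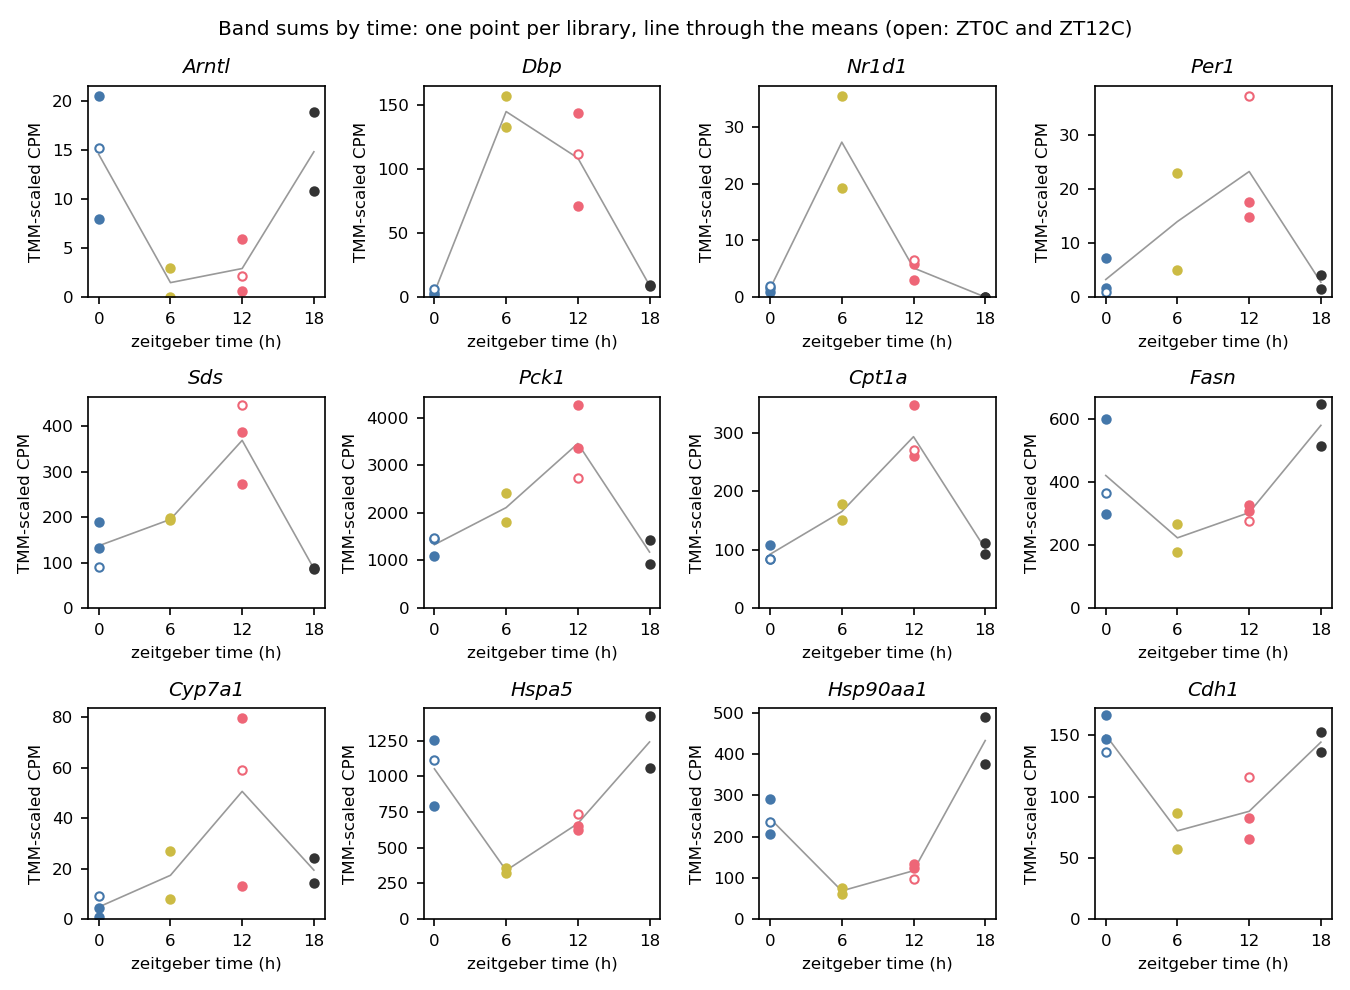
Band CPM of 12 genes by zeitgeber time, with 1 point per library and a line through the group means; open points are ZT0C and ZT12C. Dbp and Nr1d1 are low at ZT0 and ZT18, Sds and Pck1 are highest at ZT12, and Hspa5 and Hsp90aa1 are lowest at ZT6.

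Clock output and feeding-linked genes also changed in most cases, 13 of 17 being rhythmic (median amplitude 1.75 log2) and 11 of them under every alternative. Lpin1, a phosphatidate phosphatase of glycerolipid synthesis, measured 49.1, 43.2 and 45.5 CPM at ZT0, 122 and 152 at ZT6, 859, 475 and 621 at ZT12, and 65.2 and 97.3 at ZT18. The ZT12 libraries lay above all others, 3.82 log2 over ZT0 (SE 0.29, edgeR adjusted p = 5.97e-08). Usp2, a deubiquitinase under clock control, rose between the same times by 4.02 log2, and Mfsd2a, a lysolipid transporter, by 3.65. Gys2, liver glycogen synthase, measured 36.6, 38.4 and 39.4 CPM at ZT0 and 73.8, 155 and 197 at ZT12, an increase of 1.91 log2 (SE 0.28).

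A second set ran the other way and was highest at ZT0. Elovl3, an elongase of very long fatty acids, measured 232, 109 and 482 CPM at ZT0, 33.4 and 70.9 at ZT6, 5.91, 1.96 and 13.1 at ZT12, and 82.6 and 48.6 at ZT18. It fell by 5.70 on the log2 scale from ZT0 to ZT12 (SE 0.62), though the ZT0 libraries themselves differed widely. Insig2, which holds back cholesterol synthesis, stood at 575, 598 and 691 CPM at ZT0, 288 and 290 at ZT6, 124, 105 and 158 at ZT12, and 377 and 366 at ZT18 (edgeR adjusted p = 3.87e-05 for the rhythm). The 4 times did not overlap for Insig2. Chka, choline kinase, measured 137, 326 and 328 CPM at ZT0 and 29.5, 16.99 and 15.3 at ZT12, and it fell by 3.77 on the log2 scale (SE 0.36). Tubb2a, a beta-tubulin, fell by 3.59 between those times.

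Metallothioneins, which bind zinc and copper, were lowest at ZT18. Mt1 measured 40.1, 24 and 128 CPM at ZT0, 381 and 339 at ZT6, 803, 502 and 302 at ZT12, and 5.80 and 5.40 at ZT18. The ZT6 and ZT12 libraries lay above all others and the ZT18 libraries below all others (amplitude 2.76 log2, edgeR adjusted p = 0.000914). From ZT6 to ZT18 Mt1 fell by 5.97 on the log2 scale (SE 0.72, edgeR adjusted p = 6.12e-05). Mt2 followed with an amplitude of 2.41 log2.

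Among the metabolic genes that mark the portal side, Sds and Pck1 were highest at ZT12. Sds measured 189, 132 and 89.98 CPM at ZT0, 193 and 198 at ZT6, 387, 274 and 446 at ZT12, and 88.4 and 85.1 at ZT18. The ZT12 libraries lay above all others and ZT18 below all others. ZT12 exceeded ZT0 by 1.41 log2 (SE 0.27, edgeR adjusted p = 0.00418). That call was lost without ZT12A and ZT12C (0.97 log2, edgeR adjusted p = 0.230) and without ZT0C and ZT12C (1.02 log2, edgeR adjusted p = 0.1). Pck1 measured 1443, 1086 and 1467 CPM at ZT0, 2421 and 1800 at ZT6, 4266, 3367 and 2738 at ZT12, and 1429 and 924 at ZT18. The order of times was the same as for Sds at the top, and ZT12 exceeded ZT0 by 1.38 log2 (edgeR adjusted p = 0.00805). It kept its call without ZT0C and ZT12C and lost it without ZT12A and ZT12C (1.31 log2, edgeR adjusted p = 0.0672).

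As lists, 3 of the 9 gluconeogenesis genes were higher at ZT12 than at ZT0 (Pck1, Slc37a4 and Foxo1) and none lower. Slc37a4, the transporter that feeds glucose 6-phosphate to its phosphatase, measured 101, 90.4 and 71.8 CPM at ZT0 and 186, 220 and 166 at ZT12. Its rhythm call (edgeR adjusted p = 0.0143) was lost without ZT12B (0.0812) and without both ZT0C and ZT12C (0.0635). Of 29 amino acid breakdown genes, 3 were higher at ZT12 (Sds, Got1 and Gpt2) and none lower. Gpt2, alanine aminotransferase, differed by 1.04 log2 (edgeR adjusted p = 0.0169), a call lost without ZT0C (0.0827) or ZT12A (0.0632). Got1 differed by 1.13 log2 (edgeR adjusted p = 0.0346) and lost its call on omission of ZT0A, ZT0B, ZT0C, ZT12A or ZT12C (0.0539 to 0.155), and Foxo1 on omission of ZT0A, ZT0C, ZT12A or ZT12C (0.0575 to 0.0852). No gene of these lists was called rhythmic under every alternative.

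Fatty acid oxidation had one firm member. Cpt1a, which carries long-chain fatty acids into mitochondria and sets the rate of their oxidation, measured 84.7, 108 and 83.9 CPM at ZT0, 179 and 152 at ZT6, 348, 261 and 271 at ZT12, and 112 and 91.9 at ZT18. The ZT12 libraries lay above all others and those of ZT6 came next, with a peak at ZT10.51 (amplitude 0.90 log2, edgeR adjusted p = 0.000607). It was called under every alternative. Of the 14 genes tested Ehhadh, a peroxisomal oxidation enzyme, was also rhythmic (edgeR adjusted p = 0.0104), though not without ZT18A (0.0940). On the synthetic side, Fdps, a farnesyl diphosphate synthase of the cholesterol pathway, ran opposite, at 83.8, 95.2 and 109 CPM at ZT0, 62.9 and 65.2 at ZT6, 20.7, 33.3 and 30.6 at ZT12, and 40.6 and 45.9 at ZT18. The 4 times did not overlap, and Fdps (peak ZT1.20, edgeR adjusted p = 0.000607) was the single rhythmic gene of 15 in its list.

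Of 13 genes of glycolysis and lipogenesis 4 were called rhythmic (Acacb, Elovl6, Fasn and Thrsp), none of them under every alternative. Fasn, fatty acid synthase, measured 299, 598 and 363 CPM at ZT0, 267 and 178 at ZT6, 325, 306 and 276 at ZT12, and 645 and 512 at ZT18. ZT0B lay within the ZT18 range, and the rhythm (amplitude 0.73 log2, edgeR adjusted p = 0.0285) lost its call in 8 of 26 alternatives, among them omission of ZT6B (0.157), ZT12B (0.0575), ZT18A (0.184) or ZT18B (0.0655). Acacb, an acetyl-CoA carboxylase, was called (edgeR adjusted p = 0.0143), but not without ZT0B (0.110) or ZT12B (0.0817). Elovl6, a fatty acid elongase (edgeR adjusted p = 0.0169), lost its call without ZT12A (0.0510). Thrsp, a lipogenic regulator (edgeR adjusted p = 0.0351), lost its call on omission of ZT0B, ZT0C, ZT6A, ZT6B, ZT12A, ZT12C or ZT18A (0.0510 to 0.129). Of 10 bile acid genes 2 were called rhythmic, Cyp7a1 and Nr0b2, a repressor of bile acid synthesis. The Cyp7a1 rhythm was lost on omission of ZT0A, ZT0B, ZT12A or ZT12C (edgeR adjusted p = 0.0513 to 0.142), and that of Nr0b2 on omission of ZT0B, ZT0C, ZT6A, ZT12A, ZT18A or ZT18B (0.0526 to 0.148). Cyp7a1 measured 4.46, 0.80 and 9.10 CPM at ZT0, 7.87 and 26.8 at ZT6, 79.7, 13.1 and 59.1 at ZT12, and 14.5 and 24.3 at ZT18. ZT12B lay within the ZT6 range and below both ZT18 libraries, and the difference between ZT12 and ZT0 (3.19 log2, SE 0.67, edgeR adjusted p = 0.00928) was lost without ZT12A (edgeR adjusted p = 0.0754).

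Several chaperones were lowest at ZT6 and rose by ZT18. Hspa5 (BiP), the main chaperone of the endoplasmic reticulum, measured 1253, 791 and 1117 CPM at ZT0, 358 and 324 at ZT6, 626, 650 and 735 at ZT12, and 1059 and 1425 at ZT18. The ZT6 libraries lay below all others and the ZT12 libraries next, with a peak at ZT19.30 (amplitude 0.99 log2, edgeR adjusted p = 0.00400). Sdf2l1, a cofactor of Hspa5, was highest at ZT0, with 99.0, 56.0 and 106 CPM, and stood at 17.7 and 19.2 at ZT6, 17.7, 15.03 and 30.6 at ZT12, and 44.9 and 66.2 at ZT18 (edgeR adjusted p = 0.000464). Hspa5, Sdf2l1 and Manf, of 13 listed folding genes, were rhythmic under every alternative, and Creld2 was called but not without ZT18B (edgeR adjusted p = 0.0983). In the cytosol Hsp90aa1, the inducible Hsp90, measured 291, 206 and 235 CPM at ZT0, 62.0 and 74.8 at ZT6, 133, 123 and 96.2 at ZT12, and 375 and 490 at ZT18. The 4 times did not overlap for Hsp90aa1, which rose by 2.68 log2 from ZT6 to ZT18 (SE 0.31, edgeR adjusted p = 5.06e-05). The comparison of ZT18 with ZT6 was not as firm for Hspa5, whose difference of 1.87 log2 (edgeR adjusted p = 0.00156) lost its call without ZT6A (0.0655) or without ZT6B (0.0706).

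Of the 5 tested genes of the portal rim and of biliary-like hepatocytes, 2 were called rhythmic, Sox9 and Cdh1, while Spp1 (edgeR adjusted p = 0.820) and Aldh1b1 (0.841) were not. Sox9, a transcription factor of biliary-like hepatocytes, measured 49.1, 26.4 and 40.4 CPM at ZT0, 5.90 and 1.92 at ZT6, 5.91, 5.88 and 13.1 at ZT12, and 10.1 and 10.8 at ZT18. The ZT0 libraries lay above all others (amplitude 1.496 log2, edgeR adjusted p = 0.00413), and the call held under every alternative. The 4 cholangiocyte markers in the files summed to 0.89 to 1.60 CPM in the band at ZT0, 0 at ZT6 and ZT18, and 0 to 0.65 at ZT12, with Krt19 and Krt7 at 0 throughout and Epcam and Muc1 at no more than 2 UMIs in any library. Their part in the Sox9 values was not tested. Cdh1 measured 167, 147 and 137 CPM at ZT0 and 136 and 153 at ZT18, with 57.5 to 116 at ZT6 and ZT12, but its call (edgeR adjusted p = 0.0352) was lost in 12 of 26 alternatives, among them the omission of ZT0B, ZT0C, ZT6A, ZT6B, ZT12A, ZT12B, ZT18A or ZT18B (0.0517 to 0.135). Hamp2 of the midlobular list measured 179, 77.6 and 195 CPM at ZT0, 216 and 378 at ZT6, 85.6, 68.0 and 63.4 at ZT12, and 28.99 and 22.96 at ZT18 (edgeR adjusted p = 6.34e-05).

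Some genes outside the lists, named by the size of their change, were low at ZT12. Aqp8, a water channel of the bile canaliculus, measured 176, 400 and 261 CPM at ZT0 and 23.6, 39.9 and 32.8 at ZT12, and it fell by 3.05 on the log2 scale. Clpx, the ATPase of a mitochondrial protease, measured 218, 270 and 258 CPM at ZT0 and 47.2, 32.7 and 41.6 at ZT12, and it fell by 2.68. Cldn1, a claudin of tight junctions, measured 96.3, 95.2 and 79.9 CPM at ZT0 and 17.7, 15.7 and 13.1 at ZT12, and it fell by 2.55. For these 3 genes the ZT12 libraries lay below all others.

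Among called genes of at least 20 CPM, 9 of the 16 largest amplitudes belonged to genes named as major urinary proteins, a tandem family of near-identical copies, with Mup15 first (3.29 log2) and Dbp next (3.19). How reads were assigned among copies is not given in the sources used here, so values of single members are uncertain. Mup18 measured 138, 5.60 and 137 CPM at ZT0, 7.87 and 11.5 at ZT6, 11.8, 1.96 and 74.4 at ZT12, and 422 and 435 at ZT18. The ZT18 libraries lay above all others, and ZT0A, ZT0C and ZT12C stood well above the other libraries of ZT0, ZT6 and ZT12. Its rhythm (amplitude 3.07 log2, edgeR adjusted p = 0.00185) was lost without ZT18A and ZT18B (edgeR adjusted p = 0.171), and with the index number as a block the fitted peak moved by more than 6 h (amplitude 1.69 log2, edgeR adjusted p = 0.00890). The ZT18 libraries alone carry their index number, so that block takes up their level and the wave is fitted to ZT0, ZT6 and ZT12. The moved peak is therefore no test of the high ZT18 level. ZT0B and ZT12B, which carry the index number of the ZT6 libraries, were the lowest of their times for Mup18. In all, 15 of the 313 rhythmic genes were Mup genes and 21 were pseudogenes, and 13 Mup genes and 22 pseudogenes stood among the 151 genes called between ZT18 and ZT6. In the comparison of ZT18 with ZT6 the index number cannot be told apart from time.

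Some lists had no call over time. None of the 9 urea cycle genes, 22 plasma proteins, 19 respiratory chain genes or 8 tested pericentral genes was called rhythmic in the band, against 3.54% of all genes. In lists this small, 0 calls lie near that share and do not show that the genes were steady. Median amplitudes were 0.23, 0.32, 0.27 and 0.62 log2 in that order, against 0.32 over all genes. The median difference of plasma proteins between ZT12 and ZT0 was -0.57 log2, against -0.04 over all genes. Of the landmarks, Cyp2f2 (edgeR adjusted p = 0.674), Ass1 (0.656), Asl (0.531) and Hal (0.650) were not called, nor were Cps1 (0.901) and Alb (0.806). Since cells were ranked within each library, the landmarks' levels over time are partly set by the ranking.

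Whether the band kept other hours than the rest of the cells was tested as a difference in the 24-h wave. Of 8882 genes, 5 (0.0563%) were called by edgeR, 436 had an unadjusted p under 0.05, and DESeq2 called 0. Cxcl9, an interferon-induced chemokine, was higher in the band than in other cells at ZT0, by 0.77 ± 0.35 log2(CPM + 1) (SD, n = 3), and lower at ZT6 (-1.21 ± 1.51, n = 2), ZT12 (-2.59 ± 2.01, n = 3) and ZT18 (-1.07 ± 0.27, n = 2). The spread at ZT6 exceeded the difference itself. Cyp2c50 was lower in the band at all times, with differences of -2.37 ± 0.49 at ZT0 (n = 3), -2.28 ± 0.01 at ZT6 (n = 2), -3.20 ± 0.52 at ZT12 (n = 3) and -3.43 ± 0.24 at ZT18 (n = 2; edgeR adjusted p = 0.00337 for both genes). Its difference was thus wider at ZT12 and ZT18.

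Cyp7b1, an oxysterol hydroxylase of the alternative bile acid path, differed by -1.30 ± 0.36 at ZT0, -1.34 ± 0.12 at ZT6 and -1.96 ± 0.86 at ZT12, but by -0.13 ± 0.19 at ZT18 (edgeR adjusted p = 0.0270). Tubb5, a beta-tubulin, differed by -0.10 ± 0.19, 0.05 ± 0.09, -0.92 ± 0.36 and -0.85 ± 0.20 at the 4 times in that order, and Txnip, an inhibitor of thioredoxin and of glucose uptake, by -0.16 ± 0.42, 0.49 ± 0.14, -0.59 ± 0.15 and -1.21 ± 0.19 (edgeR adjusted p = 0.0428 for both). Txnip was therefore nearest to the other cells at ZT0 and lowest relative to them at ZT18. These calls were fragile. Tubb5 lost its call in 20 of 26 alternatives, Txnip in 18 of 26, Cyp7b1 in 10 of 26, Cyp2c50 in 6 of 26 and Cxcl9 in 5 of 25. Without a single library, the call ended for Cyp2c50 at ZT18A (edgeR adjusted p = 0.0578) and for Cyp7b1 at ZT6B (0.0555), ZT18A (0.996) and ZT18B (0.590). It ended for Txnip without any library of ZT6, ZT12 or ZT18 (0.0534 to 0.533), and for Tubb5 without any of those or ZT0A (0.0534 to 0.468). No clock gene was among the 5, which does not show that the clock ran alike in the band and elsewhere.

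**Figure D5:**
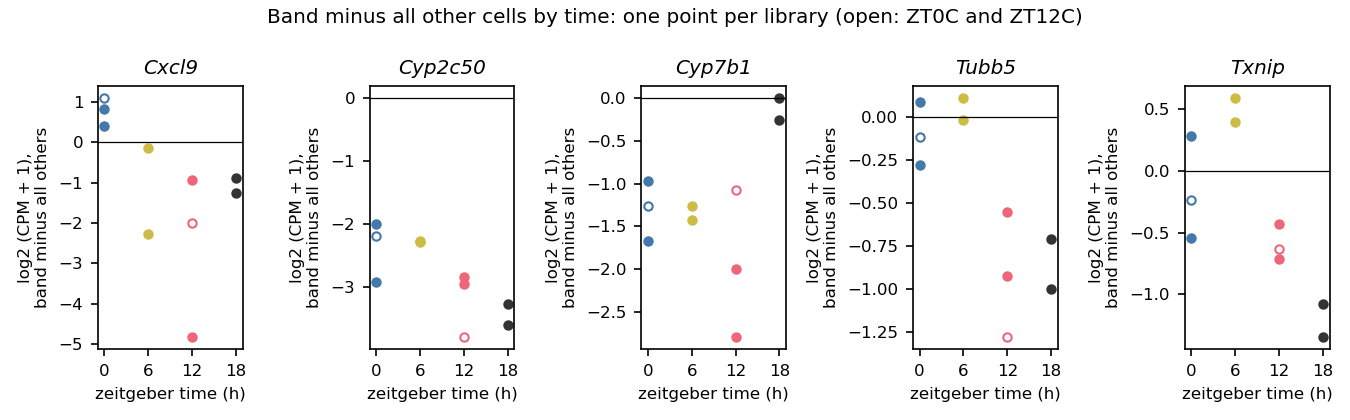
Band minus all other cells on the log2(CPM + 1) scale for Cxcl9, Cyp2c50, Cyp7b1, Tubb5 and Txnip by zeitgeber time, with 1 point per library. Cxcl9 lies above 0 at ZT0 (mean 0.77), Cyp2c50 stays below 0 at all times, and Txnip goes from 0.49 at ZT6 to -1.21 at ZT18.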

How the data were processed

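The deposited files hold UMI counts per gene and numbered cell, which the authors left unnormalized: whole numbers with differing totals, for 14812 gene entries in 18378 cells of 1048 to 10001 UMIs. Per the submitters' processing notes Cell Ranger was used, and hg19 and mm10 are named without a role; versions, cell filters and strand handling are not given in the sources used here. Symbols were matched to reference gene names, with RefSeq symbols as a second source (14336 entries matched). GENCODE M21 gave the gene type of 14321 entries and marked 99 as pseudogenes. No cells were removed, no doublet caller was run and no coordinates or sequences are given.

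Counts were summed per library and band and tested with edgeR 4.0.16 (glmQLFit, glmQLFTest, R 4.3.3, TMM) after genes averaging under 3 CPM were dropped, with Benjamini-Hochberg adjustment over all genes tested and a threshold of 0.05. Comparisons of bands had the library as a block; rhythm was tested by an F-test on 2 df, cosine and sine. An SE is the log2 difference divided by the square root of F. Landmarks were left out of counts of calls between bands and for the difference in rhythm. They were kept among the genes counted over time within the band. A total of 3 UMIs, the limit that a count of 0 allows, equal 1.96 to 8.86 CPM in the band and cover counting error only. The scripts were tested on simulated data. Same-group libraries were not copies (chi-square per degree of freedom 2.36 to 17.6).

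Named genes were the 8 largest differences per direction between bands and between times (16 for the rhythm) among called genes of at least 20 CPM, excluding pseudogenes and, between bands, landmarks, mitochondrial genes and genes without the same sign in all 10 libraries (8 of 10 against the mean of the neighbours), with the called rhythm differences and members of fixed lists. Members, lists and tests were chosen with earlier results of these data known. As a check of pairing, deviations from group means were correlated between same-letter libraries. The r was 0.13, 0.18 and 0.18 between ZT0 and ZT12, where letters share index numbers, and 0.02 and 0.02 between ZT6 and ZT18. Between ZT0 and ZT12 a pairing by letter cannot be told apart from a shared index number. With 2 libraries each, deviations at ZT6 and ZT18 mirror each other, so those values are not independent. Whether letters pair libraries is not given in the sources used here. Alternatives were RLE or library size alone, DESeq2 1.42.0, other filters, scores and band limits, the replicate letter or index number as a block, and leaving out each library. Leaving out ZT12A with ZT12C, ZT18A with ZT18B, or ZT0C with ZT12C was added after the data had been seen.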

Additional observations from a re-analysis of the deposited data

Results flagged for a closer look

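Among 44 sets of per-library differences of named genes, 9 had one library far from the other 9 (Dixon's ratio above 0.466, a limit that chance passes in about 1 of 20 sets). Between band and midlobular cells, ZT12A had a log2 difference of 5.13 for Cib3 and 1.73 for Mup20, and ZT12C had -6.21 for Cyp2a5 and -3.35 for Cyp2c54. Between band and rim, ZT12A had 0.74 for Sult2a8 and ZT0C had -1.50 for Aldh1b1. Against the mean of the neighbours, ZT12A had 2.46 for Cib3, ZT0C had 0.64 for Neat1, and ZT18A had 1.76 for Cyp7a1, where the fitted difference over all libraries was negative. ZT12A and ZT12C were the shallowest libraries and ZT0C and ZT12C those with high Malat1; their part in these values was not tested.

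The band and all other cells differed in their 24-h wave for 5 genes by the test of that difference, with amplitudes of the difference of 1.39 log2 for Cxcl9, 0.71 for Cyp2c50, 0.88 for Cyp7b1, 0.63 for Tubb5 and 0.93 for Txnip.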

How the results depend on the processing

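Counts of genes called moved by over 1.5 times as follows. Against midlobular cells (493), DESeq2 called 312. Against the rim (38), DESeq2 called 22, even landmarks 68, 5 bands 5 and the set without ZT0C and ZT12C 25. Against the mean of the neighbours (16), DESeq2 called 1, no filter 39, a filter of 20 CPM 3, thinned cells 3, 5 bands 1, single omissions 8 to 25, and omission of ZT12A and ZT12C 7. For the rhythm (313), no filter gave 621, single omissions 175 to 339, omission of ZT18A and ZT18B 153 and of ZT0C and ZT12C 207. For ZT12 against ZT0 (201), no filter gave 369, single omissions 117 to 226, omission of ZT12A and ZT12C 94 and of ZT0C and ZT12C 107. For ZT18 against ZT6 (151), no filter gave 308, the replicate block 290 and single omissions 22 to 224. For the difference in rhythm (5), RLE gave 3, library size 3, DESeq2 0, no filter 14, 20 CPM 1, omission of the top 5% of cells 3, odd landmarks 1, even landmarks 1, thinned cells 0, the narrow band 2, the replicate block 14, the index block 16, single omissions 1 to 13, and omission of ZT18A and ZT18B 3, ZT12A and ZT12C 2 and ZT0C and ZT12C 16. Fewer libraries or other genes enter several of these fits; otherwise the cause was not tested.

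With the replicate letter as a block, the rhythm had 403 calls (311 shared with the 313) and ZT12 against ZT0 had 283 (199 shared with the 201). The sign turned for Spp1 against its neighbours with thinned cells (-0.019). The fitted peak moved by over 6 h with the index block for Mup15 (amplitude 0.89), Gm5096 (0.84), Mup18 (1.69), Mup5 (1.13), Mup7 (1.30), Mup4 (0.85), Mup17 (0.72), Mup11 (1.64) and Mup12 (1.24), for the difference of Cxcl9 with thinned cells (0.86), and for that of Cyp7b1 with the index block (0.58) and without ZT18A and ZT18B (0.15). In fits with the index block the ZT18 libraries, which alone carry their number, have no weight on the wave. Moved peaks under that block therefore do not test the ZT18 levels. No sign turned for named genes against midlobular cells, the rim or all other cells, or between times, under the alternatives run. Genes under about 9 CPM in the band rest on 3 or fewer UMIs in the shallowest library.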
